A study of Mus musculus with 2 samples.

Results

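The genes described here encode the enzymes that bring pyruvate into the mitochondrion, oxidise it in the tricarboxylic acid (TCA) cycle and pass reducing equivalents from the cytosol to the mitochondrion. They are 33 of the 55536 mouse genes in the tables, taken from a fixed list of symbols (the pyruvate carrier, the pyruvate dehydrogenase complex, TCA cycle enzymes, malate dehydrogenases, aspartate aminotransferases, malic enzymes, anaplerotic enzymes, ATP citrate lyase and the glycerol phosphate shuttle) and not by any measured value. All 33 symbols matched. The study sequenced total RNA of heart tissue, in 1 library from each of 2 male B6CASTF1/J adults aged 8 to 10 months. B6CASTF1/J animals are first-generation hybrids of C57BL/6J and CAST mice, and no split by parental allele was made here. The labels give no treatment, no engineered allele and no heart chamber, and both libraries were made from 300 ng of RNA after ribosomal RNA had been reduced, with ERCC spike-in RNA added. Replicate 1 is animal 2 and replicate 2 is animal 4 in the labels, which nevertheless give both the same donor entry. There is 1 group, so levels and ratios within each library are described and the animals are compared as single libraries. Throughout, ± is the SD over 2 libraries (n = 2), which shows the spread between these animals only.

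Pyruvate made in the cytosol crosses the inner mitochondrial membrane through a carrier and is turned into acetyl-CoA by the pyruvate dehydrogenase complex. Citrate synthase joins acetyl-CoA to oxaloacetate, and the cycle then regenerates oxaloacetate while it loads NADH and reduced flavin for the respiratory chain. NADH formed in the cytosol cannot cross that membrane, so the heart, a tissue of high oxidative capacity, is known to rely mostly on the malate-aspartate shuttle and less on the glycerol phosphate shuttle.

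The depth was 42.13 M expected counts in replicate 1 and 40.07 M in replicate 2 (expected counts are read counts divided among overlapping transcripts by a model). Levels are in TPM, a relative abundance which corrects for transcript length and sums to the same total in every library. Nuclear protein-coding genes held 35.9% of TPM in replicate 1 and 36.8% in replicate 2, and genes of the mitochondrial genome 36.4% and 36.6%. All 7 heart muscle markers were at 1 TPM or more in both libraries, with a summed level of 28274 and 30866 TPM, while the 5 hepatocyte markers summed to 0.33 and 0.35 TPM. Markers of endothelium (179 and 177 TPM) and fibroblasts (170 and 179 TPM) were at like levels in both animals, whereas all 5 of blood erythroid cells (summing to 11660 and 6319 TPM) and all 7 of adipocytes (19.1 and 4.97 TPM) were higher in replicate 1. The 5 macrophage markers were mixed: their sum was 123 and 63.8 TPM, mostly through Lyz2 (88.2 and 29.2 TPM), their median was 10.1 TPM in each library, and 3 were higher in replicate 1.

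The pathway was abundant as a whole. Every one of the 33 genes reached 1 TPM in both libraries, a level met by 48.9% of all 22015 nuclear protein-coding genes. Their median level was 181 TPM in replicate 1 and 202 TPM in replicate 2, or 192 ± 15.1 TPM, beside 8.24 ± 0.0849 TPM for the 10755 nuclear protein-coding genes at that level. Together they held 2.15 ± 0.0696% of the TPM of nuclear protein-coding genes. These are values of bulk tissue, in which fewer cells of a type and less RNA per cell cannot be told apart.

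**Figure D1:**
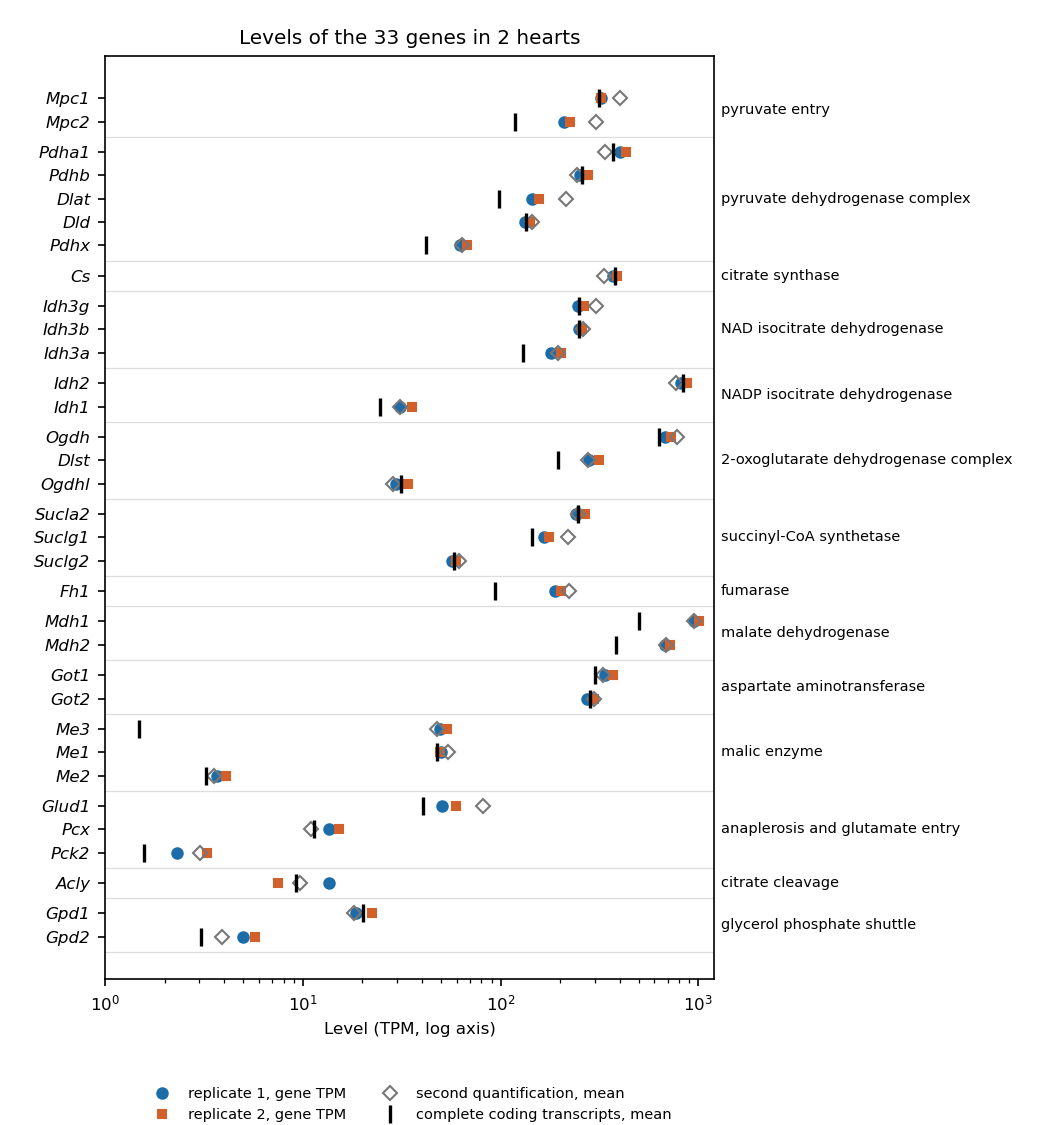
TPM of the 33 genes (horizontal, log axis) grouped by enzyme step, with circles for replicate 1 and squares for replicate 2. Diamonds give the mean of the second quantification and bars the mean of complete coding transcripts. Enzymes of the cycle and malate-aspartate shuttle stand mostly above 100 TPM and the side routes below it, and Acly is the gene whose 2 libraries stand farthest apart.

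The highest levels belonged to malate dehydrogenase, mitochondrial isocitrate dehydrogenase and 2-oxoglutarate dehydrogenase. Mdh1, the cytosolic malate dehydrogenase (ENSMUSG00000020321.15, mm10 chr11:21556787-21572367, minus strand), was at 947 TPM in replicate 1 and 1008 in replicate 2 and ranked 37th among nuclear protein-coding genes. Idh2, the mitochondrial NADP-dependent isocitrate dehydrogenase (ENSMUSG00000030541.16, chr7:80094846-80115392, minus strand), followed at 817 and 877 TPM. Ogdh, the E1 component of the 2-oxoglutarate dehydrogenase complex (ENSMUSG00000020456.17, chr11:6291633-6356642, plus strand), stood at 680 and 728 TPM. The ranges of these genes did not overlap, and each was higher in replicate 2. In the second quantification, however, Idh2 (772 and 779 TPM) and Ogdh (775 and 776 TPM) overlapped and could not be ordered. Mdh2, the mitochondrial malate dehydrogenase (ENSMUSG00000019179.10, chr5:135778480-135790398, plus strand), was at 676 and 720 TPM, and its range overlapped that of Ogdh. At the other end stood Pck2, the mitochondrial phosphoenolpyruvate carboxykinase, at 2.30 and 3.28 TPM. In the order of the 33 mean levels, 19 of the 32 neighbouring pairs had library ranges that did not overlap and 13 had ranges that did. The order of 5 neighbouring pairs differed between the animals, namely Idh3g and Idh3b, Idh3b and Sucla2, Fh1 and Idh3a, Me3 and Me1, and Pcx and Acly.

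At the entry of pyruvate, the carrier subunit Mpc1 exceeded its partner Mpc2. Mpc1 was at 321 TPM in replicate 1 and 323 in replicate 2, and Mpc2 at 209 and 223. The proteins form a heterodimer, and within each library the Mpc2 to Mpc1 ratio was −0.58 ± 0.06 on the log2 scale, and −1.42 over complete coding transcripts. Mpc1 shares 29.0% of the 31-base words of its leading coding transcript with other genes, led by the processed pseudogene Mpc1-ps. Mpc1-ps was assigned 1245 and 1288 counts, or 163 TPM on average, but 0 and 198 counts in the second quantification. The size of the step between Mpc1 and Mpc2 is therefore uncertain.

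The 5 subunits of the pyruvate dehydrogenase complex were unequal, from 65.0 to 417 TPM, a 6.41-fold range. Pdha1, the X-linked catalytic alpha subunit of E1, was at 403 and 431 TPM, and Pdhb, the beta subunit with which it forms a tetramer, at 253 and 277 TPM. Within libraries Pdha1 exceeded Pdhb 1.57-fold (log2 0.65 ± 0.03). The genes that carry the acetyl group onward and regenerate the cofactor stood below both E1 subunits. Dlat, the E2 acetyltransferase that forms the core of the complex, was lower, at 143 and 157 TPM. Dld, the E3 dehydrogenase that the 2-oxoglutarate dehydrogenase and branched-chain complexes also use, was at 133 and 140 TPM. Pdhx, the protein that binds E3 to the core, was the lowest at 62.2 and 67.8 TPM. Dlat exceeded it 2.31-fold in a ratio that hardly moved between animals (log2 1.21 ± 0.01). The size of that ratio depended on the quantification, and was 3.36-fold (log2 1.75) in the second one. The ranges of Dlat, Dld and Pdhx did not overlap. Between Dlat and Dld, however, the step was small (log2 0.14 ± 0.04) and turned to −0.45 when complete coding transcripts alone were counted. Pdhb shares 41.9% of its 31-base words with the pseudogene Gm6123, which held 14 and 16 counts, against 12290 and 12676 for Pdhb.

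**Figure D2:**
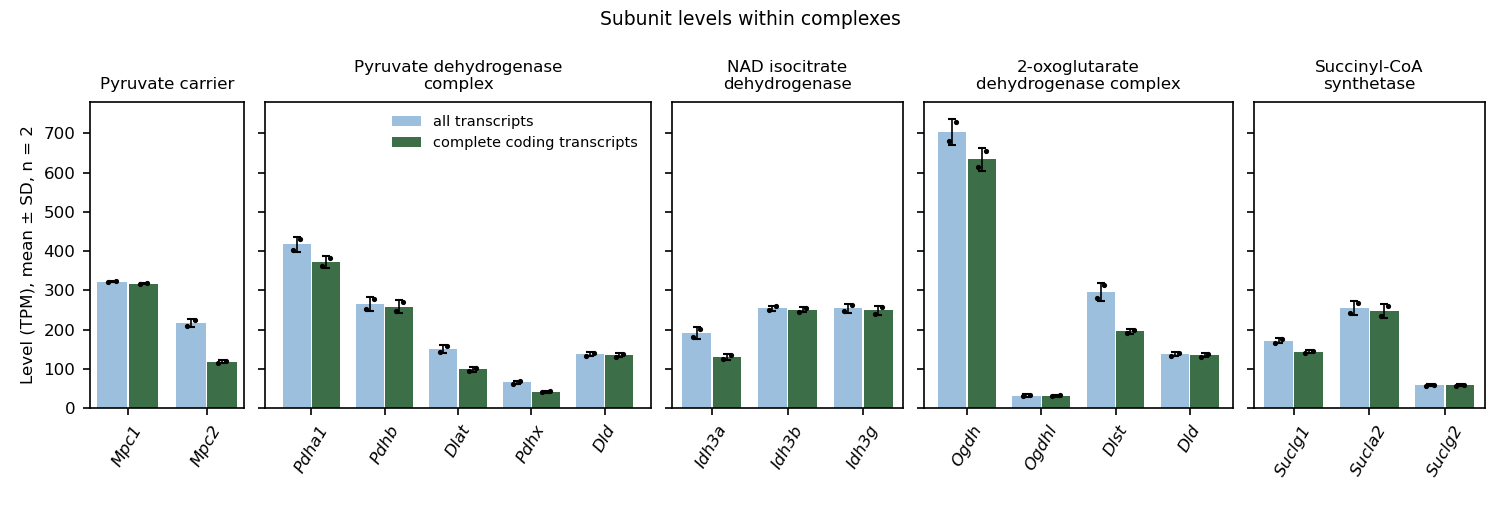
Mean ± SD (n = 2) of TPM for the subunits of 5 complexes, with points for each library; light bars count all transcripts of a gene and dark bars complete coding transcripts alone. Pdha1 and Ogdh, the E1 components, stand above the E2 and E3 genes of their complexes, and Dld is drawn in both complexes because both use it.

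The gene of the first step of the cycle was abundant and close between the animals. Cs, citrate synthase, was at 370 and 388 TPM.

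The NADP-dependent Idh2 had the highest level of the 5 isocitrate dehydrogenase genes. It held 53.5 ± 0.0218% of their summed TPM, and 49.6% in the second quantification, and exceeded its cytosolic paralog Idh1 25.4-fold (log2 4.67 ± 0.07). Idh1 was at 31.1 and 35.8 TPM. The NAD-dependent enzyme, the form placed in the classical cycle, is built of a catalytic alpha subunit and the beta and gamma subunits. Idh3a, the alpha subunit, was at 181 and 202 TPM. Idh3b, the beta subunit, was at 250 and 259 TPM, and Idh3g, the X-linked gamma subunit, at 247 and 263 TPM. Beta and gamma could not be ordered (log2 0.00 ± 0.03), and alpha lay below beta by a log2 ratio of −0.41 ± 0.08. The holoenzyme is known to hold 2 alpha subunits for each beta and gamma, so the transcript levels did not follow the subunit numbers of the protein.

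The 2-oxoglutarate dehydrogenase complex was also led by its E1 gene. Ogdh exceeded Dlst, the E2 succinyltransferase, 2.38-fold, and Dlst, at 280 and 313 TPM, exceeded the shared Dld 2.17-fold. Dlst, which forms the core here, exceeded Dlat, the core gene of the pyruvate dehydrogenase complex, 1.97-fold (Dlat to Dlst, log2 −0.98 ± 0.02), though the log2 ratio was −0.37 in the second quantification. Ogdhl, a paralog of Ogdh best known from brain, was at 29.7 and 33.9 TPM and made up 4.32 ± 0.186% of the E1 transcripts. Mrps36, which links E3 to this complex and belongs to the wider list of pathway genes, was at 64.1 ± 2.39 TPM.

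Ogdh transcripts carry one of a pair of alternative exons, shown here because the choice between them was nearly complete. Capitals mark the exon and lower case the 15 bases of the exons on each side, read 5′ to 3′ from the GENCODE M21 transcripts on mm10. The first lies at chr11:6316978-6317080 (plus strand, 103 bases) and the second just upstream at chr11:6316765-6316855 (plus strand, 91 bases), each being wholly coding and the 4th of 23 exons in its transcript.
Ogdh exon of Ogdh-201: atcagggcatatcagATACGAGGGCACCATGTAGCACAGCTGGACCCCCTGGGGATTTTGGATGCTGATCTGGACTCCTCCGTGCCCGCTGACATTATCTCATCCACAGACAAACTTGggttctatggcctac
Ogdh exon of Ogdh-202: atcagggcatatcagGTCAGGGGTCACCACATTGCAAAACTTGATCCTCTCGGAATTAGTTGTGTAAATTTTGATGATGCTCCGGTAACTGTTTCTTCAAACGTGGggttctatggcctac
Among the transcripts that hold either exon, the second was in 0.884% of TPM in replicate 1 and 1.06% in replicate 2, and in 0.484% in the second quantification. The remaining 99.0% carried the first. Both exons and the transcripts named below were picked after the transcript shares had been seen.

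Succinyl-CoA synthetase, which makes nucleoside triphosphate directly, pairs a common alpha subunit with a beta subunit for ADP or for GDP. Sucla2, the ADP-forming beta subunit, was at 242 and 267 TPM, and Suclg2, the GDP-forming one, at 56.9 and 59.8 TPM. Sucla2 therefore made up 81.3 ± 0.547% of beta transcripts, 4.35-fold the level of Suclg2. Suclg1, the common alpha subunit, lay between them at 167 and 176 TPM. Its level was below that of the beta subunits summed, which differs from the equal numbers of alpha and beta in the protein. Suclg2 shares 36.3% of its 31-base words with the pseudogene Gm15163 (421 and 370 counts, against 4944 and 4938 for Suclg2).

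Of the later cycle, fumarase and malate dehydrogenase belong to the 33 genes. Fh1, the single fumarase gene, was at 189 and 202 TPM. The subunits of succinate dehydrogenase, which makes the substrate of fumarase and is also respiratory complex II, were at 477 ± 18.9 TPM for Sdha, 463 ± 18.0 for Sdhb, 453 ± 16.1 for Sdhc and 253 ± 10.6 for Sdhd.

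The enzymes of the malate-aspartate shuttle were all high. Mdh1 exceeded Mdh2 1.40-fold, and their log2 ratio differed little between animals (Mdh2 to Mdh1, −0.49 in both). Got1, the cytosolic aspartate aminotransferase, was at 339 and 372 TPM, and Got2, the mitochondrial one, at 272 and 295 TPM. The Got2 to Got1 log2 ratio was −0.32 ± 0.01 in TPM, −0.09 over complete coding transcripts and 0.11 in counts not corrected for length. Got2 shares 38.9% of its 31-base words with other genes, led by the pseudogene Got2-ps1, to which 2901 and 3215 counts were assigned beside 22969 and 23517 for Got2. With the TPM of Got2-ps1 added, Got2 was at 342 and 377 TPM, just above Got1, so the order of Got1 and Got2 is uncertain. The carriers of the shuttle, taken from the wider list, followed at 242 ± 10.8 TPM for Slc25a11, the oxoglutarate carrier, 96.3 ± 4.38 for Slc25a12 and 47.7 ± 1.36 for Slc25a13, the calcium-regulated aspartate-glutamate carriers. Slc25a12 was 2.02-fold above Slc25a13 (log2 1.01 ± 0.11).

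The glycerol phosphate shuttle was far lower. Gpd1, its cytosolic NAD-dependent dehydrogenase, was at 18.6 and 22.3 TPM, and Gpd2, the flavoprotein of the inner membrane, at 5.0 and 5.72 TPM. Mdh1 exceeded Gpd1 48.0-fold (log2 5.58 ± 0.12), or 24.9-fold over complete coding transcripts. Both Gpd genes were thus below the lowest of the shuttle enzymes Mdh1, Mdh2, Got1 and Got2 in each library. The related Gpd1l was at 15.04 ± 1.73 TPM.

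Malic enzymes turn malate into pyruvate, in the cytosol for Me1 and in the mitochondrion for Me2 and Me3. Me1 was at 50.2 and 49.5 TPM, and Me3 at 49.2 and 53.8 TPM. They could not be ordered (log2 0.04 ± 0.10). Me2, the NAD-linked form, was at 3.69 and 4.10 TPM, and made up 3.70 ± 0.167% of the summed malic enzyme TPM. Me1 shares 35.3% of its 31-base words with other genes, led by the pseudogene Gm7049, which held 55 and 65 counts beside 5212 and 5183 for Me1.

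The level of Me3 came almost wholly from transcripts that are not annotated as coding. Me3-201, a processed transcript of 1130 bases, held 56.4 ± 1.07% of the gene's TPM, and Me3-203, a retained-intron transcript, 38.7% on average. The complete coding Me3-202 held 2.48% in replicate 1 and 3.24% in replicate 2, or 1.22 and 1.74 TPM. By mean this was the lowest coding level of the 33 genes. Pck2, at 1.84 and 1.32 TPM over complete coding transcripts, was lower in replicate 2. It was also lower in the second quantification (1.01 TPM, against 2.17 for Me3). In counts Me3-202 held 8.89 ± 1.5%, and in the second quantification 4.55% of TPM. Exons of Me3-201 and Me3-203 together cover all 1812 coding bases of Me3-202, which differs from them most in its last exon of 2624 bases, against 227 in Me3-201. Counted over complete coding transcripts, Me1 made up 91.0 ± 1.05% of malic enzyme TPM and Me3 2.81 ± 0.508%. Me3 also overlaps 2 annotated genes on the opposite strand, A230065N10Rik and Gm15744, and the sources used here do not say whether counting used strand.

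Enzymes that feed or drain the cycle were at low or moderate levels. Glud1, glutamate dehydrogenase, which makes 2-oxoglutarate, was at 50.6 and 59.7 TPM. Pcx, pyruvate carboxylase, which makes oxaloacetate from pyruvate, was at 13.5 and 15.2 TPM, and Pdha1 exceeded it 29.1-fold (log2 4.86 ± 0.05). Acly, ATP citrate lyase, which splits citrate exported to the cytosol for fatty acid synthesis (ENSMUSG00000020917.17, chr11:100476353-100528000, minus strand), was at 13.6 TPM in replicate 1 and 7.46 in replicate 2. Cs exceeded Acly 37.6-fold (log2 5.23 ± 0.66), the ratio with the largest SD of the 30 pairs examined. The citrate carrier Slc25a1 was at 2.76 ± 0.276 TPM. Of the 30 pairs, 28 could be ordered between libraries, meaning the same sign in both and a mean log2 ratio over 2 SDs from 0. That rule does not cover the choice of quantification, transcript class or length correction. Among the pairs it ordered, Got2 to Got1, Dlat to Dld, Me3 to Me2, Idh3a to Idh3b and Idh3a to Idh3g changed sign under such an alternative.

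Annotated transcript class changed the picture for several of the most abundant genes. The median share of complete coding transcripts was 84.8% of a gene's TPM, and 75.2% in the second quantification. It was over 90% in both libraries for 13 of the 33 genes, among them Cs, Got2, Suclg2 and Idh2, and under 50% in both for Me3 and Fh1. By counts, however, the complete coding share was 83.5% for Fh1 and 8.89% for Me3. By the mean share of the libraries, a complete coding transcript led in 32 genes, all but Me3. In replicate 2 alone, however, an incomplete coding transcript led Pck2, with 39.9% of TPM against 35.6% for the transcript that led by mean. The leading transcript was the same in both quantifications for 27 genes and another for Dlat, Idh3a, Fh1, Mpc2, Glud1 and Pck2. In the second quantification none of these 6 genes was led by a complete coding transcript. Their leading transcripts there were processed transcripts for Dlat and Mpc2 and incomplete coding transcripts for Fh1, Glud1 and Pck2. For Idh3a it was a transcript annotated for nonsense-mediated decay.

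**Figure D3:**
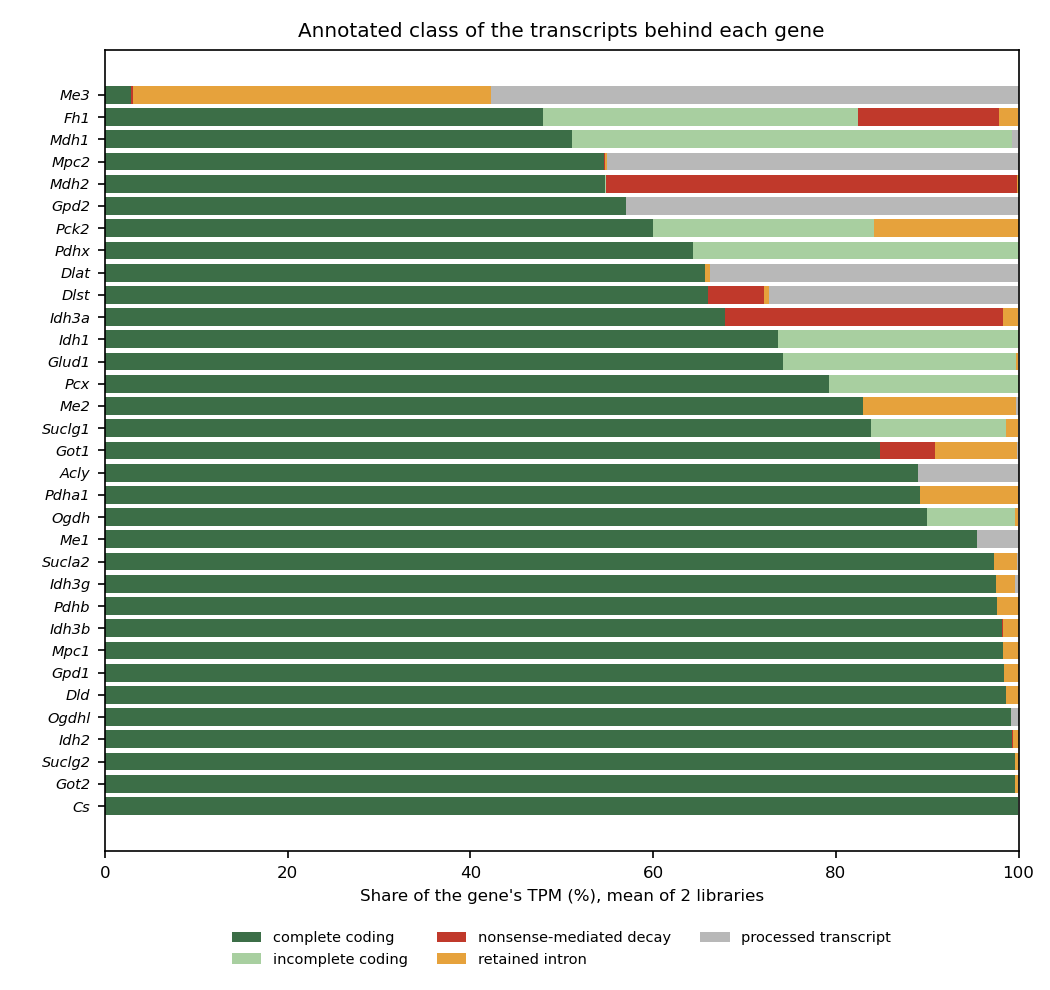
Share of each gene's TPM (%, mean of 2 libraries) by annotated class of transcript, genes ordered by the share of complete coding transcripts. Me3 has almost no complete coding transcript, Mdh1 and Fh1 hold large incomplete coding shares, and Mdh2 and Idh3a hold large shares annotated for nonsense-mediated decay.

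The first place of Mdh1 rested on a short fragmentary model. Mdh1-202, an incomplete coding transcript of 549 bases, held 48.1 ± 0.30% of the gene's TPM but 17.2 ± 0.24% of its counts, since TPM divides by length. Over complete coding transcripts Mdh1 was at 500 ± 28.3 TPM and stood after Idh2 (841 ± 42.1 TPM) and Ogdh (634 ± 28.9 TPM). The second quantification gave the same first 4 places over complete coding transcripts, with 771 TPM for Idh2, 556 for Ogdh, 475 for Mdh1 and 392.1 for Mdh2.

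Mdh2 has an annotated transcript that leaves out its 2nd of 9 exons, shown here because this shorter form was assigned a large share of the gene's TPM. The exon lies at chr5:135783305-135783473 (plus strand), is wholly coding and has 169 bases, which is not a multiple of 3. Capitals mark it in the first line, and the second line gives the junction formed without it, with 15 bases on each side.
Mdh2 with exon: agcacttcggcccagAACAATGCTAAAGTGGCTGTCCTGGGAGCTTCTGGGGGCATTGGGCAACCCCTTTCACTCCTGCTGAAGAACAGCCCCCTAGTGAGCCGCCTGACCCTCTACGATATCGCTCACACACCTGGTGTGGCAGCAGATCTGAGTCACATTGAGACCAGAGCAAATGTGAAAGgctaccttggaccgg
Mdh2 without exon: agcacttcggcccaggctaccttggaccgg
The form without the exon, Mdh2-203, is annotated for nonsense-mediated decay, the pathway that removes transcripts with an early stop codon. It made up 44.5% in replicate 1 and 45.5% in replicate 2 of the TPM of transcripts that hold or skip the exon, and 38.0% by counts. In the second quantification its share was 34.9%. Idh3a showed a like case: Idh3a-204, which holds an extra exon of 95 bases and is also annotated for decay, made up 30.9% of TPM in each library and 50.4% in the second quantification. These shares were assigned to whole transcripts, which also differ outside these exons. Mdh2-203 has 1112 bases and Mdh2-201 1456, and Idh3a-204 has 1812 and Idh3a-205 2580. Reads across the junctions were not examined.

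The hearts were close to each other in this pathway, about as close as over all genes of like depth. Counts were scaled between libraries by the TMM method, and a gene was called different at a scaled ratio of 2-fold or more with an exact counting interval that excluded no change. None of the 33 genes was called at that threshold, which 1.08% of 10960 genes passed, 0.858% higher in replicate 1 and 0.219% higher in replicate 2. Beside so low a share, the lack of calls does not set these genes apart. At a threshold of a 25% difference 1 gene, Acly, was called, beside 8.52% of all genes in either direction and 5.14% higher in replicate 1. No p-value applies, because each animal gave 1 library. The median size of the log2 ratio was 0.075 over the 33 genes. At 2000 or more summed counts it was 0.073 over the 30 of these genes that reached that depth and 0.074 over all genes that did.

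The remaining differences were small and ran one way. Scaled counts were higher in replicate 2 for 32 of the 33 genes, beside 53.9% of the 10960 genes, and the median log2 ratio was 0.07, beside 0.01 for all genes with 50 or more summed counts. Deposited TPM was higher in replicate 2 for 31 of the 33, where 59.2% of 10482 nuclear protein-coding genes were. With ERCC spike-in scaling the count dropped to 25 of 33, beside 40.3% of all genes, and the median to 0.02. The 7 heart muscle markers were also all higher in TPM in replicate 2 and the 5 erythroid markers all lower, and the part of either in this shift was not tested. After Acly, the ratio farthest from 0 was that of Idh1, at a log2 value of 0.25 with an interval from 0.10 to 0.40.

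**Figure D4:**
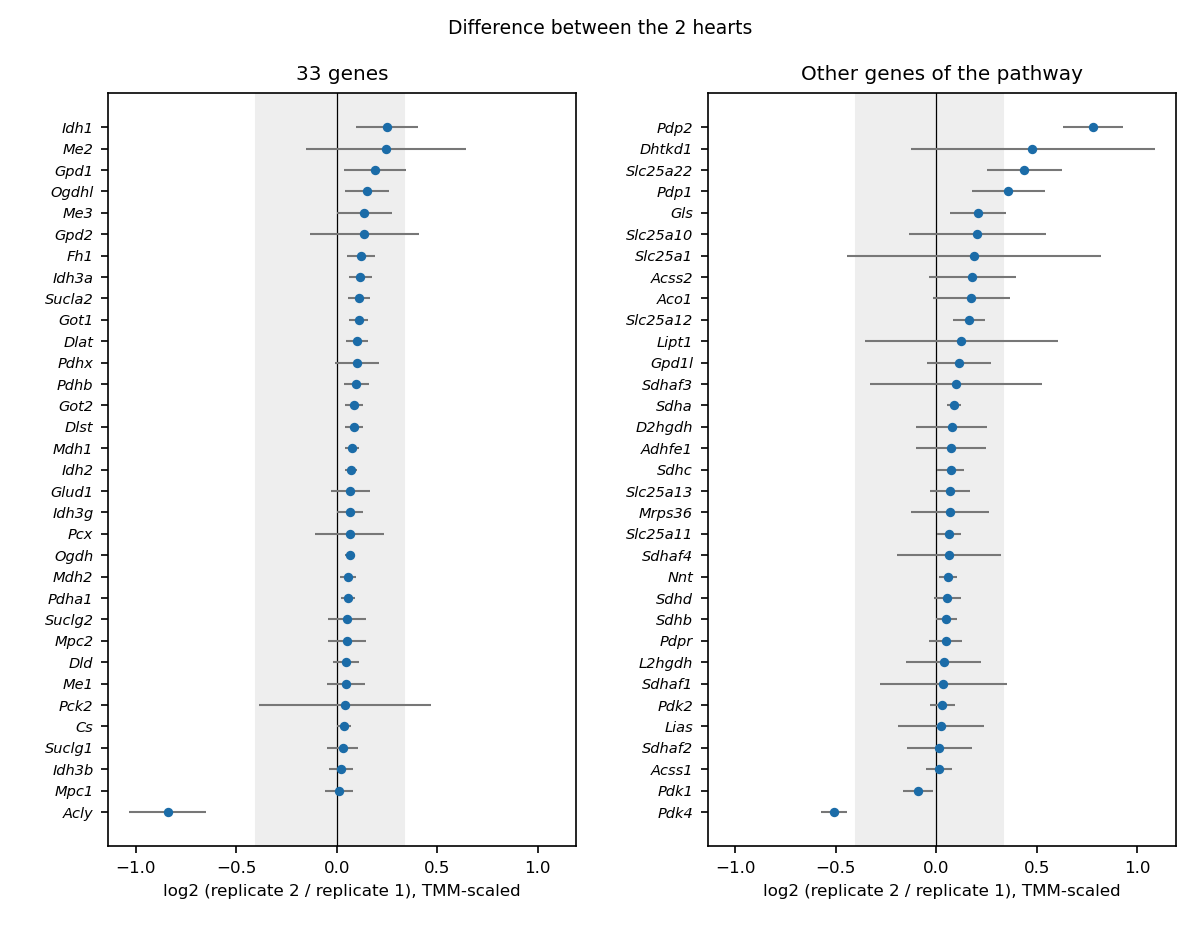
Log2 ratio of TMM-scaled counts, replicate 2 over replicate 1, with counting intervals, for the 33 genes and for the other pathway genes with 200 or more summed counts, 1 of which is not shown. The shaded band spans the 5th to 95th percentile of all genes with 200 or more summed counts (−0.40 to 0.33). Acly, at −0.84, is the only one of the 33 genes outside the band.

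Acly had 1779 counts in replicate 1 and 958 in replicate 2. After scaling it was 1.79-fold higher in replicate 1, with a counting interval from 1.57 to 2.05, and the ratio stayed between 1.77 and 1.85 under the other scalings and in the second quantification. Adipocytes are a known site of high Acly expression, and all 7 adipocyte markers were likewise higher in replicate 1, with 901 summed counts against 207. Of these markers 2 were at 1 TPM or more in both libraries, Cfd and Car3, and none was at 0. All 5 erythroid markers were higher in replicate 1 as well, with 215241 summed counts against 110196, and the macrophage markers were mixed. The part of any of these cell types in the Acly difference was not tested. Pck1, the cytosolic phosphoenolpyruvate carboxykinase of liver and fat, had 124 and 8 counts, too few in sum for the rule. Me1, Gpd1, Pcx and Idh1, of which Me1 and Gpd1 are also well known in fat, had scaled log2 ratios from 0.05 to 0.25, toward replicate 2. The counting intervals of Me1 (−0.05 to 0.14) and Pcx (−0.11 to 0.24) included 0, those of Gpd1 and Idh1 did not, and the TPM of Me1 was slightly lower in replicate 2.

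**Figure D5:**
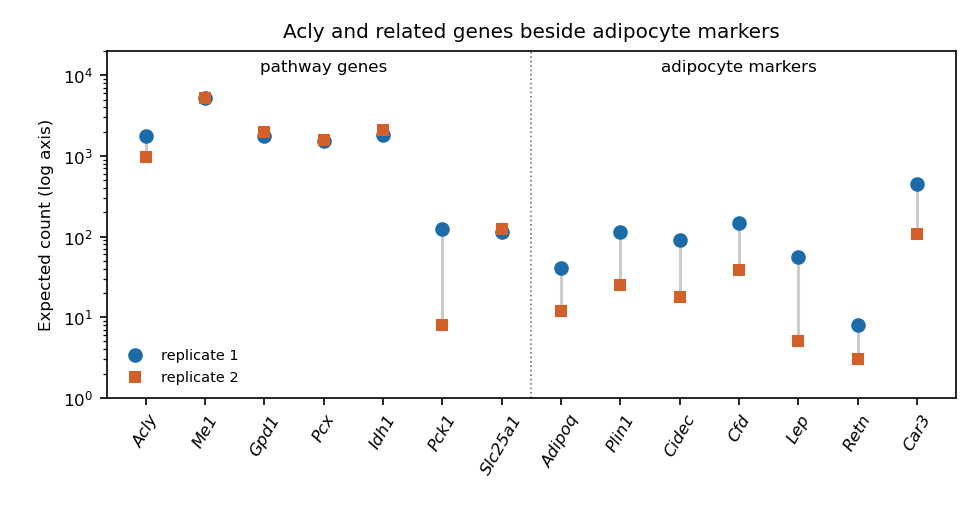
Expected counts (log axis) in replicate 1 (circles) and replicate 2 (squares) for Acly, other pathway genes picked for comparison, and 7 adipocyte markers. Acly, Pck1 and all the adipocyte markers are higher in replicate 1, while Me1, Gpd1, Pcx, Idh1 and Slc25a1 lie within a narrow gap.

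The assigned shares of Acly transcripts also differed between the animals at an optional exon of 30 bases. The exon is shown here because it changes the coding sequence in frame. It is the 14th of 29 exons in Acly-203 and lies at chr11:100503160-100503189 (minus strand). Capitals mark the exon, and the lower-case bases belong to its neighbours.
Acly optional exon: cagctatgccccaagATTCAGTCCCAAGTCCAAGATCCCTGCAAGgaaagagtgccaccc
Transcripts with the exon made up 38.4% of TPM in replicate 1 and 53.2% in replicate 2, among transcripts that hold or skip it. The second quantification gave 44.8% and 56.8%. With 1 library per animal these shares are a description. They were assigned to whole transcripts at modest depth (Acly-203, 656 and 474 counts, and Acly-201, which skips the exon, 1075 and 454). For Acly, too, reads across the junctions were not examined.

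Of 43 other genes of the pathway, 42 were matched by symbol, and Mpc1l was not analysed here. In both libraries 37 reached 1 TPM, and their median over the matched genes was 17.3 ± 1.76 TPM. Pdha2, the testis form of E1 alpha, Mdh1b and Got1l1 had 0 counts in both, which allows up to 3 counts per library. Of the 34 genes with 200 or more summed counts, 0 were called at 2-fold, and at a 25% difference 1 was called higher in replicate 1 and 3 higher in replicate 2, beside 3.39% of all genes for the latter direction.

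The called genes included regulators of the pyruvate dehydrogenase complex, whose E1 is switched off by kinases and on by phosphatases. Pdk4, the kinase induced by fasting, was at 178 TPM in replicate 1 and 129 in replicate 2, a scaled ratio of 1.42-fold. Pdp2, a phosphatase, was at 8.41 and 14.8 TPM, 1.72-fold higher in replicate 2, and Pdp1, the calcium-stimulated phosphatase, at 13.3 and 18.1 TPM, 1.28-fold higher (1.24-fold with spike-in scaling). The fourth was Slc25a22, a glutamate carrier named after its values had been seen, at 15.4 and 23.4 TPM. Over the same animals the complex itself was nearly level, with scaled log2 ratios from 0.05 to 0.10 for Pdha1, Pdhb, Dlat, Dld and Pdhx. Pdk2 was at 170 ± 8.75 TPM, Pdk1 at 69.6 ± 3.06, Pdk3 at 1.41 ± 0.495 and Pdpr, a regulatory subunit of the phosphatase, at 48.7 ± 2.38.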

How the data were processed

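Per the file headers, the gene and transcript tables deposited by the authors have the layout that RSEM writes and hold expected counts, TPM, FPKM and each transcript's percent share of its gene. A separate deposited transcript table per library, called the second quantification, holds estimated counts and TPM in the layout of kallisto, per the file headers. The deposited upper bounds of TPM intervals were treated as a score and not used. All tables use mm10 and GENCODE M21, per the file listings deposited with them; the aligner and tool versions were not given in the sources used here. The 26248 rows with numeric identifiers were left out.

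Expected counts were rounded and scaled by TMM (edgeR 4.0.16) over genes without spike-ins; DESeq2 1.42.0 gave alternative size factors. Ratios carry an exact Clopper-Pearson interval (99.9%) that covers counting error only, and genes needed 200 or more summed counts to be called. Only the rule for calling genes different was tried on simulated counts, with known folds. The libraries' counts differed by a chi-square of 15.4 per degree of freedom over 17075 genes, so they are not a single library. Transcript classes, exons and shared 31-base words came from GENCODE M21. Python 3.11.15, pandas 2.3.3, scipy 1.17.1 and R 4.3.3 were used. The 33 genes were taken by symbol and not by a measured value. Earlier results of these data were nevertheless known when the genes, lists and pairs were chosen. All 33 genes are named; of the other pathway genes, those that complete a step, complex or shuttle are named whatever their value, apart from 1 step that is not reported here. Alternatives covered the quantification, scaling, filters, thresholds, length correction, transcript class and leaving out each library.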

Additional observations from a re-analysis of the deposited data

How the results depend on the processing

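The 33 genes all stayed at 1 TPM or more in both libraries in the second quantification, after rescaling, over complete coding transcripts and without either replicate. Their median of 192 TPM was 218 in the second quantification, 529 when TPM was rescaled over nuclear protein-coding genes, 158 in deposited FPKM and 130 over complete coding transcripts, an alternative chosen after seeing the data, and ranged from 181 to 202 when a replicate was left out. Their share of 2.15% became 0.780% of all TPM on mouse genes, 2.05% of expected counts and 1.72% over complete coding transcripts, and 2.10 to 2.19% when a replicate was left out. The count of genes differing between animals was 1 in place of 0 at 1.5-fold and at a 25% difference, the latter added after seeing the data. The median log2 ratio between animals of 0.0714 was 0.0579 with DESeq2 size factors, 0.0907 with total counts, 0.0740 with nuclear protein-coding totals, 0.0234 with ERCC spike-ins and 0.0827 in the second quantification. Of 176 alternative values of the 30 gene pairs, 11 over 7 pairs changed sign. In counts not corrected for length these were Idh3a to Idh3b (0.16), Idh3a to Idh3g (0.46), Got2 to Got1 (0.11) and Me3 to Me1 (−1.08), where by construction longer transcripts gain. Over complete coding transcripts they were Dlat to Dld (−0.45), Me3 to Me2 (−1.14) and Me3 to Me1 (−5.03). In the second quantification they were Idh3b to Idh3g (−0.22) and Me3 to Me1 (−0.19), and the cause was not tested. When a replicate was left out, Idh3b to Idh3g ranged from −0.0206 to 0.0215 and Me3 to Me1 from −0.0299 to 0.119. The fold of a pair moved by over 1.5 times for 3 of 30 pairs in the second quantification, 6 of 26 over complete coding transcripts and 9 of 30 in uncorrected counts. No paired analysis was possible because there is a single group. Depth limits Pck2, Me2 and Gpd2, the genes with the fewest counts, most.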
